A study of Homo sapiens with 4 samples.

Results

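Mirtrons are miRNAs whose precursor hairpin is a short intron. The spliceosome cuts the intron out, the lariat is opened, and the hairpin then goes to Dicer, so that Drosha, the nuclease that frees ordinary hairpins from their primary transcripts, is not used. The 5p arm of such a hairpin begins at the splice donor and the 3p arm ends at the splice acceptor. The 10 mature mirtron miRNAs described here were chosen by name, as classical mammalian mirtrons, from the 2656 mature miRNAs in the count table. They are both arms of miR-877, miR-1224 and miR-1226, the 5p arm of miR-1225, and the 3p arms of miR-1227, miR-1229 and miR-1236, from 7 hairpins in all, and the table lists them with the prefix hsa for human, as in hsa-miR-877-5p. Whether each of them is made without Drosha was not tested here.

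The counts come from 4 small RNA-seq libraries of cortical interneurons, inhibitory nerve cells differentiated in culture from H1, a human embryonic stem cell (hESC) line. The 2 ethanol-exposed libraries are from cultures that were kept for 7 days in neuronal maturation medium with around 50 to 100 mM ethanol, followed by a day without ethanol. The 2 unexposed libraries are from cultures of the same line kept for 7 days without ethanol. All cultures thus share 1 line and 1 differentiation protocol, and nothing in the sources used here says that the replicates were separate differentiations, so P values measure only the spread between these samples.

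The libraries held between 12100425 and 24858230 counts, and each exposed library was deeper than each unexposed one, so depth and exposure cannot be told apart. CPM denotes counts scaled to a common library total by TMM. Summed over 8 neuronal marker miRNAs, CPM were 310000 to 396000 in the exposed and 372000 to 489000 in the unexposed libraries, led by miR-9-5p. The ranges of this sum overlapped. Of the 8, only hsa-miR-124-3p (named after its values were seen) had an unadjusted edgeR P under 0.05. This miRNA was higher with ethanol, by 0.77 on the log2 scale (edgeR P 0.0316, adjusted p 0.922), without overlap between the groups. Across all tested miRNAs, 4.52% had an edgeR P under 0.05 and 18.8% were higher without overlap. Pluripotent stem cell markers (8 miRNAs, led by miR-302b-3p) summed to 2.70 to 3.33 CPM in the exposed and 3.82 to 4.20 CPM in the unexposed libraries, with 2 of the 8 at 0 throughout. Oligodendrocyte markers (3 miRNAs) summed to 75.7 to 95.8 CPM with ethanol and 76.0 to 116 CPM without. Markers of non-neural cells (7 miRNAs, 1 of them at 0 throughout) summed to 1220 to 1230 CPM with ethanol and 1080 to 1310 CPM without, most of it endothelial miR-126-3p.

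The mature sequences are shown because they carry both splice site ends and the seeds. They are RefSeq's, on GRCh38.p14, written 5′ to 3′ with the seed (bases 2 to 8) in capitals, and all 10 members were found there.
hsa-miR-877-5p: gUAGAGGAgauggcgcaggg
hsa-miR-877-3p: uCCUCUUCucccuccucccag
hsa-miR-1224-5p: gUGAGGACucgggaggugg
hsa-miR-1224-3p: cCCCACCUccucucuccucag
hsa-miR-1225-5p: gUGGGUACggcccagugggggg
hsa-miR-1226-5p: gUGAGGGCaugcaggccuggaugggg
hsa-miR-1226-3p: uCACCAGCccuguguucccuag
hsa-miR-1227-3p: cGUGCCACccuuuuccccag
hsa-miR-1229-3p: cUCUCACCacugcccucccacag
hsa-miR-1236-3p: cCUCUUCCccuugucucuccag

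Each of the 10 had a seed of its own, shared with no other member and with 0 of the other miRNAs of the table that had a RefSeq sequence (2367 of the 2656 did). Among the human hairpins taken from RefSeq, the mature sequence of each was found in 1 only. A full-length, exact read of a member could thus not have come from another of these hairpins. Reads with mismatches, and hairpins outside this set, were not searched. Each of the 4 5p members began with GU, the first bases of an intron, and each of the 6 3p members ended with AG, the last bases of an intron. Among all listed miRNAs with a sequence, 3.42% began with GU and 12.1% ended with AG. The 5p members were rich in purines, from 68.2% in miR-1225-5p to 80.0% in miR-877-5p, whereas the 3p members were rich in pyrimidines, from 68.2% in miR-1226-3p to 90.5% in miR-877-3p. Every member was richer in G and C than the median listed miRNA (52.2%), from 59.1% in miR-1226-3p and miR-1236-3p to 77.3% in miR-1225-5p.

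The hairpins of miR-877 and miR-1226 are shown whole, since the counts came mainly from the 5p arm of the former and the 3p arm of the latter. The capitals mark the mature arms, and the first and last bases are the ends of the intron.
MIR877: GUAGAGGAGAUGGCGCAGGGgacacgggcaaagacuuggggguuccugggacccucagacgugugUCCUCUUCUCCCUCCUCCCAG
MIR1226: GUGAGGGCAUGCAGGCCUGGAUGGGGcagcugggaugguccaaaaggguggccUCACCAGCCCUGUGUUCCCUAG

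MIR877 lies at chr6:30584332-30584417 on the plus strand of GRCh38.p14, in an intron of ABCF1, which encodes an ATP-binding cassette protein of translation initiation. MIR1226 lies at chr3:47849555-47849629 (plus strand) in DHX30, an RNA helicase gene. MIR1224 was found at chr3:184241405-184241489 (plus strand) in VWA5B2. MIR1225 was at chr16:2090195-2090284 (minus strand) in PKD1, the gene of polycystin-1. MIR1227 was at chr19:2234062-2234149 (minus strand) in PLEKHJ1. MIR1229 was at chr5:179798278-179798346 (minus strand) in MGAT4B, a glycosyltransferase gene. MIR1236 was at chr6:31956839-31956940 (minus strand) in NELFE, which encodes a subunit of the negative elongation factor that pauses RNA polymerase. The counts themselves carry no coordinates, and the submitters' processing notes name hg19, so positions were joined by miRNA name.

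All 7 hairpins matched an annotated intron of GENCODE 29 at both ends, with 0 bases between hairpin and splice site, and each intron lay between coding exons of its host. Of 1560 human hairpins in the RefSeq table, 23 (1.47%) filled an annotated intron of their own strand in this way, and 2.31% began with GU and ended with AG. The introns were 69 bases (MIR1229) to 102 bases (MIR1236) long, with a median of 86 bases against 80 bases for all hairpins. Their GC content had a median of 66.7% against 52.1% for all hairpins, from 54.9% in MIR1236 to 74.4% in MIR1225. The predicted folding energy per base (RNAfold) had a median of -0.472 kcal/mol, close to the -0.452 kcal/mol of all hairpins. Within the 7 hairpins, the 5p arm began at the first base of the intron in 6, and in MIR1236 1 base later, and the 3p arm ended at the last base in all 7. The intron match, splice site ends and high GC content were not particular to these 7. All 6 RefSeq hairpins of other mirtrons numbered in the same run, described below, filled an intron. They include MIR1233-1 and MIR1233-2, which have the same length (82 bases) and GC content (73.2%), and none is of miR-1234. All 6 began with GU and ended with AG, and their median GC content was 73.2%.

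**Figure D1:**
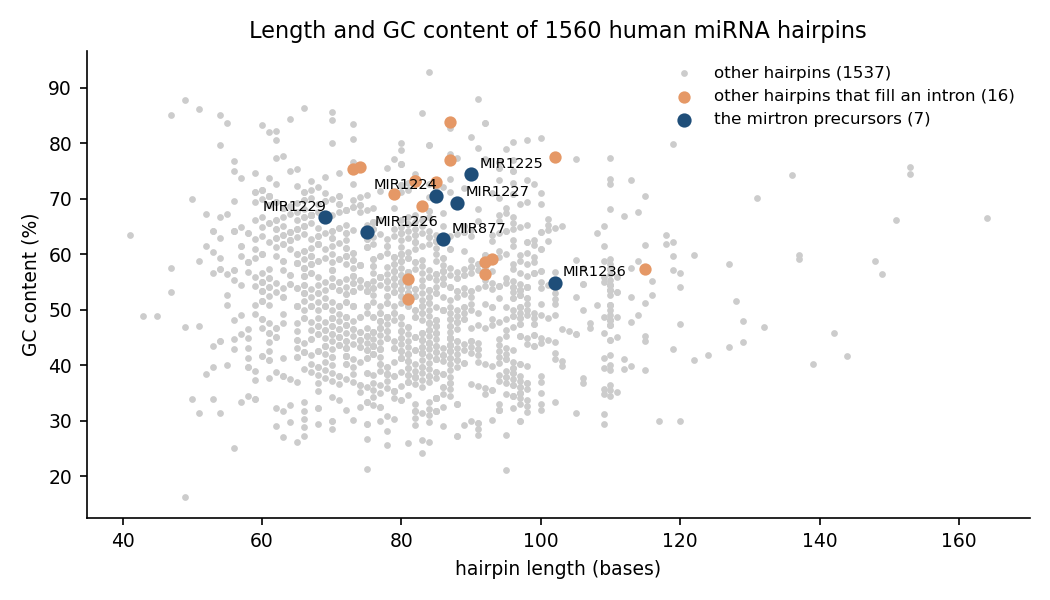
Length in bases (x axis) against GC content in percent (y axis) of 1560 human miRNA hairpins, with the 7 mirtron precursors named, 16 other hairpins that fill an annotated intron in orange and the rest in grey. The 7 precursors lie between 69 and 102 bases and between 54.9% and 74.4% GC, above the median GC of 52.1%.

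miR-877-5p was the most abundant member by a wide margin. It read 92.5 and 76.5 CPM with ethanol (replicates 1 and 2) and 72.3 and 89.5 CPM without (replicates 1 and 2), on 853 to 2333 counts per library. With a mean of 82.7 CPM it ranked 182 among the 863 miRNAs that passed the filter on low counts. It took between 63.0% and 66.0% of the members' counts in each library, and with miR-1226-3p and miR-1224-5p it took between 93.3% and 96.1%.

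miR-1226-3p read 22.6 and 23.2 CPM with ethanol and 17.9 and 24.4 CPM without. miR-1224-5p read 19.6 and 14.3 CPM with ethanol and 15.4 and 13.1 CPM without, and its range overlapped that of miR-1226-3p. Both lay below each value of miR-877-5p and above each value of the remaining members. These 3 are the only members above the median level of the tested miRNAs, 6.50 CPM.

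The next level was taken by miR-877-3p and miR-1229-3p, whose ranges overlapped. miR-877-3p read 3.69 and 2.34 CPM with ethanol and 1.70 and 3.65 CPM without. miR-1229-3p read 3.25 and 3.29 CPM with ethanol and 1.27 and 2.88 CPM without. Unexposed replicate 1 was the lowest library for both.

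miR-1226-5p and miR-1227-3p followed at about 1 CPM, again with overlapping ranges. miR-1226-5p read 0.912 and 1.03 CPM with ethanol and 0.678 and 1.17 CPM without. miR-1227-3p read 1.03 and 0.575 CPM with ethanol and 0.254 and 0.777 CPM without, on 26, 14, 3 and 10 counts.

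The other 3 members were too rare to be tested. miR-1236-3p had 7 and 6 counts with ethanol and 3 and 1 without, and miR-1224-3p had 11 and 2 counts against 2 and 1. On the total count, the 95% Wilson interval of miR-1224-3p was 0.276 to 0.886 CPM in exposed replicate 1, its highest library, and 0.0146 to 0.468 CPM in unexposed replicate 2, the lower of the unexposed libraries. For miR-1236-3p the intervals of the same libraries were 0.153 to 0.650 CPM and 0.0146 to 0.468 CPM, so for both members the intervals overlapped. miR-1225-5p had 1 count in exposed replicate 1 and 0 in the other libraries. In those libraries 3 counts, taken as the smallest number that can be told from 0, would be 0.121 to 0.248 CPM on the total count. Intervals and floors cover counting error only, because the reads carry no molecular identifiers.

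**Figure D2:**
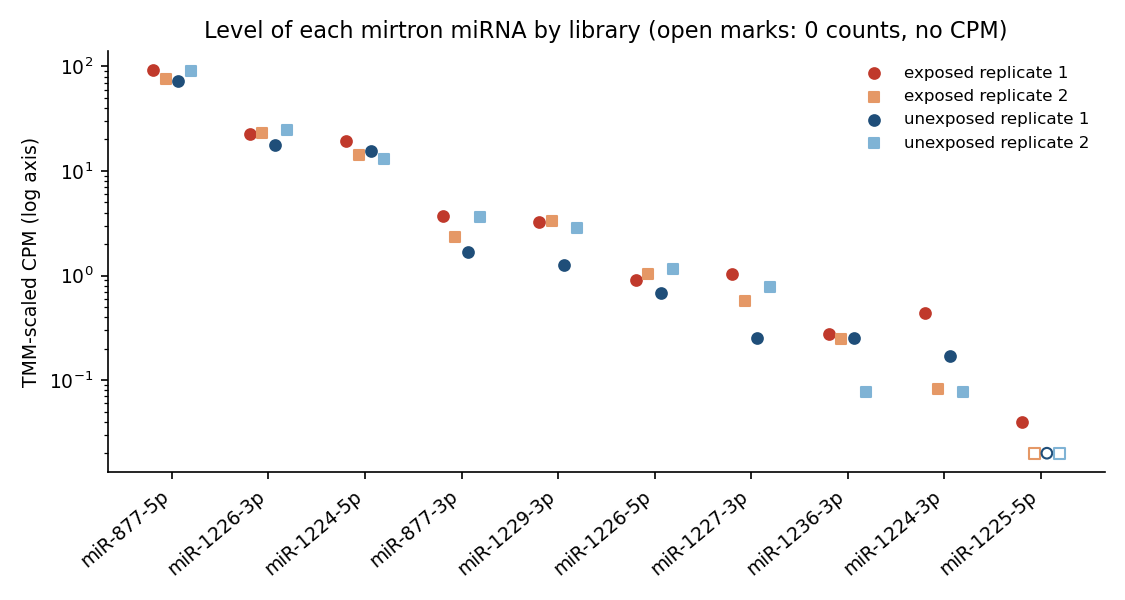
TMM-scaled CPM (y axis, logarithmic) of the 10 mirtron miRNAs (x axis, ordered by mean level) in each of the 4 libraries. Each filled mark is 1 library and open marks stand for 0 counts at an arbitrary height. miR-877-5p lies between 72.3 and 92.5 CPM and the exposed and unexposed marks of most members are interleaved.

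The comparison of exposed with unexposed interneurons asks whether a 7-day ethanol exposure altered the level of these miRNAs. No member passed a threshold. Of the 10 members, 7 passed the low-count filter, and edgeR's quasi-likelihood test across all 863 miRNAs gave 0 of these an unadjusted P under 0.05, against 4.52% of all miRNAs (39 miRNAs, 22 higher and 17 lower). When a 2-fold difference was also required there were also 0 members, against 2.32% of all miRNAs, and past an adjusted p of 0.05 there were 0 members and 0 miRNAs of any kind. limma-voom and DESeq2 likewise gave 0 members with a P under 0.05 (31 and 28 of all miRNAs, 3.59% and 3.24%). In bulk cultures, fewer cells and less of an miRNA per cell cannot be told apart.

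miR-1229-3p averaged 3.27 ± 0.0246 CPM (SD, n = 2) with ethanol against 2.07 ± 1.13 CPM (SD, n = 2) without. On the log2 scale the difference was 0.64 (standard error 0.40), or 1.56-fold with a 95% interval from 0.817-fold to 2.99-fold. The edgeR P was 0.150, the adjusted p 0.922 and the exact permutation p 0.3333, the smallest that 2 libraries against 2 allow. It was the single tested member whose exposed and unexposed libraries did not overlap, which held for 33.4% of all tested miRNAs and, in the higher direction, for 18.8%.

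miR-1227-3p, at 0.803 ± 0.322 CPM (SD, n = 2) with ethanol against 0.516 ± 0.370 CPM (SD, n = 2) without, changed by 0.61 on the log2 scale (standard error 0.58) with an edgeR P of 0.325. Its 95% interval, from 0.60-fold to 3.89-fold, was the widest of the 7, and exposed replicate 2 lay below unexposed replicate 2. For both miR-1229-3p and miR-1227-3p the outcome turned on which unexposed replicate was kept, and unexposed replicate 1 was the lowest library of both. Without unexposed replicate 2 edgeR gave log2 fold changes of 1.35 and 1.63, the lone unexposed library being assumed to vary like the exposed ones. The unadjusted P values of edgeR in this fit were 0.00763 and 0.0438, and its adjusted p values were 0.169 and 0.377. In that fit 12.3% of all miRNAs had a P under 0.05 and 5.21% were also past a fold change of 2. When unexposed replicate 1 was left out in its place, they were 0.18 and 0.052 on the log2 scale.

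For the abundant members the difference between the groups was smaller than its standard error. miR-877-5p averaged 84.5 ± 11.3 CPM (SD, n = 2) with ethanol against 80.9 ± 12.2 CPM (SD, n = 2) without ethanol, which is 0.063 on the log2 scale (standard error 0.24) with an edgeR P of 0.805, and the 95% interval ran from 0.705-fold to 1.55-fold. miR-1226-3p, at 22.9 ± 0.429 CPM (SD, n = 2) with and 21.1 ± 4.61 CPM (SD, n = 2) without ethanol, differed by 0.11 on the log2 scale (standard error 0.28, edgeR P 0.695) with an interval from 0.694-fold to 1.68-fold. miR-1224-5p, at 16.9 ± 3.71 CPM (SD, n = 2) with and 14.3 ± 1.62 CPM (SD, n = 2) without ethanol, differed by 0.25 on the log2 scale (standard error 0.29, edgeR P 0.424) with an interval from 0.743-fold to 1.89-fold. The last value depended on the exposed libraries, being 0.0047 on the log2 scale without exposed replicate 1 and 0.45 without exposed replicate 2.

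The passenger arms that could be tested gave wider intervals. For miR-877-3p the log2 fold change was 0.17 (standard error 0.43, edgeR P 0.712), and for miR-1226-5p it was 0.060 (standard error 0.41, edgeR P 0.886), with intervals from 0.561-fold to 2.24-fold and from 0.544-fold to 2.00-fold. Their libraries overlapped, and in neither was the difference larger than the spread between replicates.

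**Figure D3:**
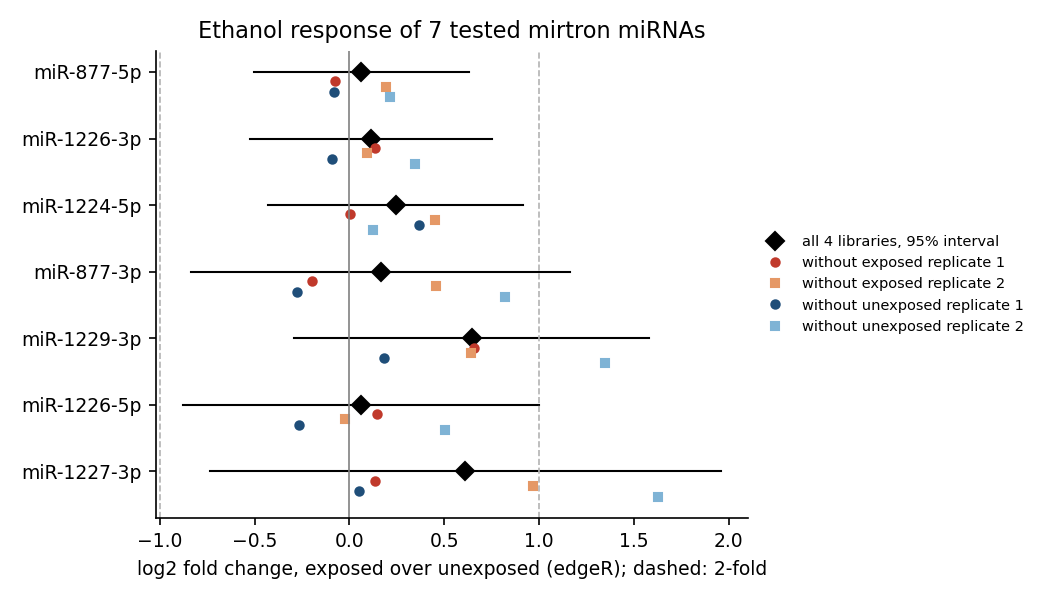
edgeR log2 fold change of exposed over unexposed cells (x axis) for the 7 tested mirtron miRNAs (y axis), with the 95% interval as a bar and, under it, the value with each library left out in turn. Every interval contains 0, and the values without unexposed replicate 2 reach 1.63 for miR-1227-3p and 1.35 for miR-1229-3p.

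The 7 tested members all had a log2 fold change above 0, from 0.060 to 0.64 with a median of 0.17, where 48.8% of all tested miRNAs were above 0 and their median was -0.010, but with upper quartile scaling miR-1226-5p (-0.047) and miR-877-5p (-0.049) lay below 0. With each of 3 libraries left out, the sign was no longer common to all 7. Without unexposed replicate 1, 4 members lay below 0. Without exposed replicate 1, miR-877-3p (-0.20) and miR-877-5p (-0.078) did, and without exposed replicate 2, miR-1226-5p did (-0.026). Unexposed replicate 1 was the lowest library for 6 of the 7 members (the exception was miR-1224-5p, lowest in unexposed replicate 2), and for 31.7% of all tested miRNAs. The members' median deviation from their own mean over the 4 libraries was -0.45 on the log2 scale in unexposed replicate 1, -0.025 in exposed replicate 2, 0.20 in unexposed replicate 2 and 0.34 in exposed replicate 1. For all tested miRNAs these medians were between -0.024 and 0.044. Without unexposed replicate 1 the members' median log2 fold change was -0.083, and without unexposed replicate 2 it was 0.50. By the median over the 7 members, the unexposed replicates lay 0.74 apart on the log2 scale, and the groups 0.17.

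**Figure D4:**
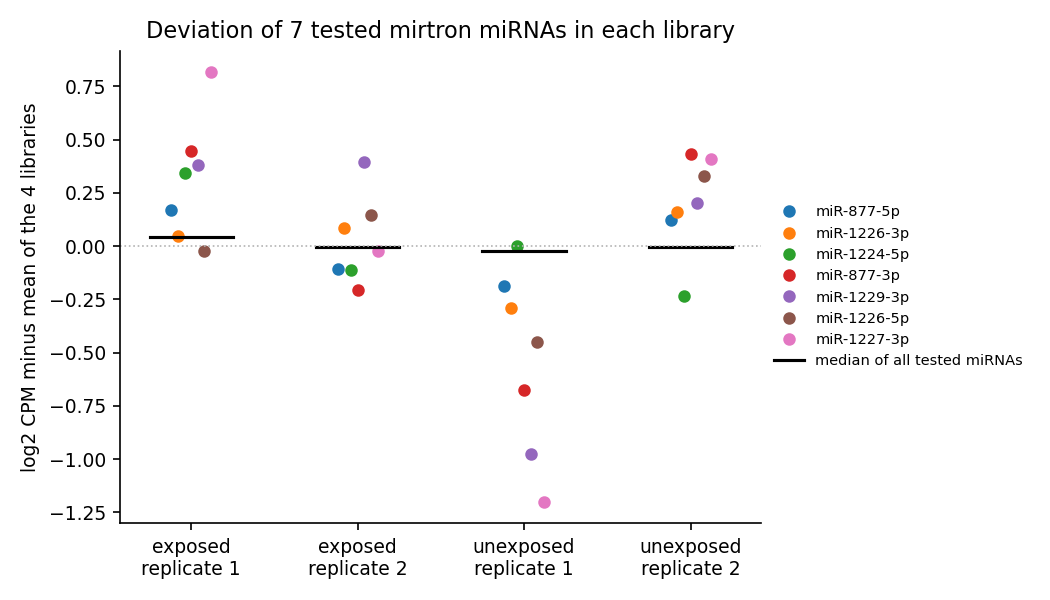
Log2 CPM of the 7 tested mirtron miRNAs minus each miRNA's mean over the 4 libraries (y axis), by library (x axis). Coloured points are the members and black bars the median of all 863 tested miRNAs. In unexposed replicate 1, 6 of the 7 members lie lower than in the other libraries, while the black bars stay between -0.024 and 0.044.

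GC content moved with the same libraries. Among 771 tested miRNAs with a RefSeq sequence, the 161 with a mature GC content of at least 60%, a limit chosen after the data were seen, had a median log2 fold change of 0.20, against -0.041 in the 610 below it. In the former, unexposed replicate 2 exceeded replicate 1 by a median of 0.21 on the log2 scale, and in the latter by 0.021. The 7 members, of which all but miR-1226-3p were in the GC-rich set, had a median difference of 0.74. The part of GC content in the members' values was not tested.

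Summed over the 10 members, the level was 144 and 122 CPM with ethanol and 110 and 136 CPM without, so that the groups overlapped. As a share of all miRNA counts the members made up between 0.0093% and 0.0164% of a library.

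The balance of the arms in the counts, which does not depend on depth or scaling, differed between the hairpins far more than between the libraries. Whether library preparation captured both arms of a hairpin equally was not tested. In miR-877 the 5p arm prevailed. The 3p arm took 3.83% and 2.97% of the counts of both arms with ethanol and 2.29% and 3.92% without, with 95% Wilson intervals that together spanned 1.49% to 5.17%. In miR-1224 the 5p arm prevailed as well, and the 3p arm took 2.18% and 0.571% with ethanol and 1.09% and 0.588% without, on 1 to 11 counts.

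In miR-1226 the order was the opposite. Its 3p arm took 96.1% and 95.8% of the counts with ethanol and 96.3% and 95.4% without, with intervals between 92.6% and 98.1%. The 3p arm also prevailed in miR-1229, where it gave 214 of 217 counts over the 4 libraries (98.6%, interval 96.0% to 99.5%), and in miR-1227, where it gave 53 of 53 counts. miR-1227-5p is 17 bases long, against 20 bases for miR-1227-3p. The shortest read length that was kept is not given in the sources used here. In miR-1236 the 3p arm gave 17 of 20 counts, and the 3 counts of the 5p arm were all in unexposed replicate 2, against 1 of the 3p arm there. miR-1225 had 1 count in all, of its 5p arm. The prevailing arm was thus the one that begins at the splice donor in miR-877 and miR-1224, and the one that ends at the splice acceptor in miR-1226, miR-1227, miR-1229 and miR-1236.

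Exposure was compared on the log2 ratio of the 3p to the 5p arm in the 3 hairpins with counts of both arms in every library. The ratio of miR-877 was -4.83 ± 0.267 (SD, n = 2) in exposed and -4.99 ± 0.551 (SD, n = 2) in unexposed cells. For miR-1226 it was 4.53 ± 0.0923 (SD, n = 2) and 4.49 ± 0.208 (SD, n = 2), and for miR-1224 -6.27 ± 1.20 (SD, n = 2) and -6.51 ± 0.446 (SD, n = 2). The differences of 0.16, 0.044 and 0.23 were smaller than the spread between replicates, and the two-sided exact permutation p was 1 for each, with 0.3333 the smallest possible.

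**Figure D5:**
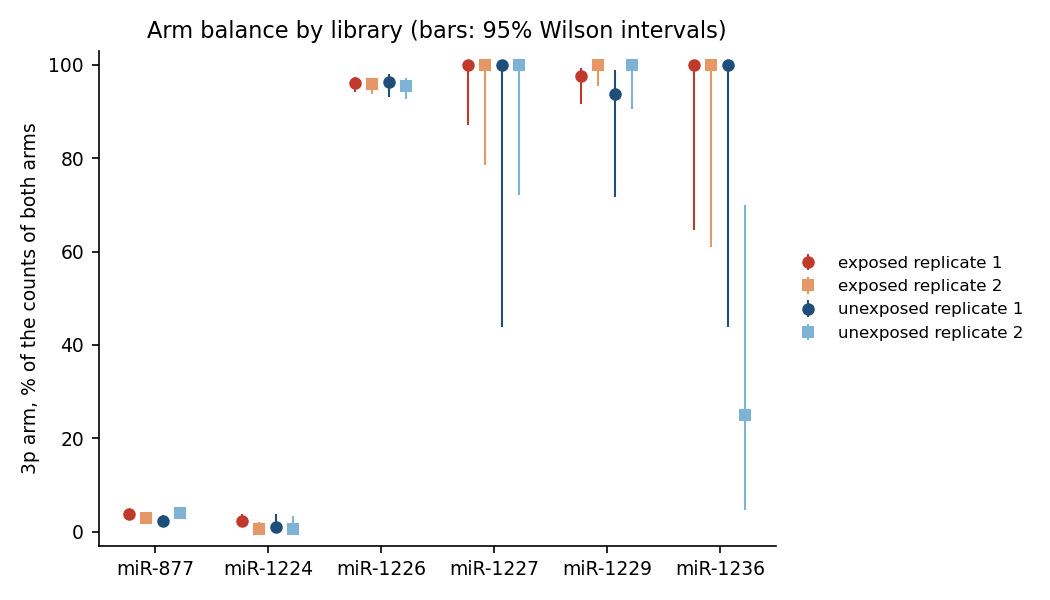
Share of the 3p arm in the counts of both arms, in percent (y axis), for 6 mirtron hairpins (x axis) in the 4 libraries, with 95% Wilson intervals as bars. miR-877 and miR-1224 lie below 4% in every library and miR-1226 above 95%, and the wide bars of miR-1227 and miR-1236 come from few counts.

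Other mirtrons were read from the table as lists. The 4 opposite arms of the members' hairpins had at most 3 counts in a library, miR-1225-3p and miR-1227-5p had 0 throughout, and none could be tested. Among 10 entries for miR-1228, miR-1231, miR-1233, miR-1234, miR-1237 and miR-1238, which are numbered in the same run as the members, 2 were tested and 0 had a P under 0.05 in edgeR, with log2 fold changes of -0.44 and -0.0081. The 16 other hairpins that fill an annotated intron, a list made after the data were seen that shares members with the former, gave 26 entries, of which 20 had a count, 4 were tested and 0 had a P under 0.05, with a median log2 fold change of -0.17. Of 350 entries numbered miR-6716 to miR-6895, 41 were tested, and 1 had a P under 0.05 (higher). Their median level was 1.38 CPM against 2.84 CPM for the tested members, and 7 of their 161 hairpins in the RefSeq table (4.35%) filled an intron. Filling an intron requires a match at both ends. Of these 161 hairpins, 145 ended with AG and 19 began with GU, against 263 and 130 of all 1560 hairpins. The miR-320 family is known for a hairpin that also bypasses Drosha, but is capped and not made by splicing. Whether this holds for each of its entries was not tested here. The family had 5 of 6 entries tested, 0 with a P under 0.05 and a median log2 fold change of -0.12.

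For miR-877-5p, the member with the highest mean level, the tested miRNAs with the most similar profile over the 4 libraries were miR-1307-3p, miR-503-5p and miR-589-5p. The root mean square difference of their mean-centred log2 CPM from that of miR-877-5p was 0.011, 0.040 and 0.052. With 4 libraries such a likeness is a description only.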

How the data were processed

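Small RNA-seq was carried out on 2 ethanol-exposed and 2 unexposed cultures. The authors used the NEBNext small RNA kit and the CAP-miRseq workflow, and deposited unnormalized read counts for each mature miRNA. The submitters' processing notes name hg19. The pipeline version, the miRNA annotation release and the handling of reads matching several miRNAs are not given in the sources used here, and a mirtron read cannot be told from a fragment of the spliced intron of the same sequence. Sample titles gave the groups and the replicate numbers. Totals ranged from 12100425 to 24858230 counts, which limits members under about 10 counts.

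From these counts, edgeR 4.0.16 in R 4.3.3 (filterByExpr at its defaults of 10 counts and a total of 15, TMM, quasi-likelihood test without covariates, Benjamini-Hochberg adjustment over all 863 miRNAs tested) compared exposed with unexposed cells. The thresholds were a P of 0.05 and a fold change of 2. CPM are TMM-scaled unless said otherwise. Standard errors were taken from the F statistic. limma 3.58.1 (voom), DESeq2 1.42.0, other scalings and filters, a replicate block and leaving out each library were alternatives. Arm ratios had 0.5 added to each count. In 4 of the 7 hairpins an arm had 0 counts in at least 1 library, and no ratio was tested there.

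Sequences and positions are RefSeq's (GRCh38.p14), introns GENCODE 29's (GRCh38), and folding energies came from RNAfold 2.7.2. All 7 hairpins had the same position in both annotations. All 10 members and the opposite arms of their hairpins were named, and the other mirtrons were described as lists. The members and lists were chosen with earlier results of these data known. The replicates were separate libraries: divided by its degrees of freedom, a chi-square statistic was 795 for the exposed and 712 for the unexposed pair.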

Additional observations from a re-analysis of the deposited data

How the results depend on the processing

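The counts of mirtron members past P (0) and past P and a fold change of 2 (0) were 0 under all 10 alternatives that kept the 4 libraries, and between 0 and 2 with a library left out. Filters at a CPM of 1 and at 10 counts left 6 and 5 members to test. The number of members without overlap (1) was 2 with library size only and between 1 and 6 with a library left out, where fewer libraries make overlap rarer by construction. The median log2 fold change of the tested members ranged from -0.083 to 0.50 with a library left out, and scaling moved the median of all tested miRNAs from -0.010 to 0.15 (library size only) or -0.12 (upper quartile), with 0.29 and 0.048 for the members. With upper quartile scaling the log2 fold changes of miR-1226-5p and miR-877-5p were -0.047 and -0.049. With a library left out, miR-1224-5p ranged from 0.0047 to 0.45, miR-877-5p from -0.083 to 0.22, miR-877-3p from -0.27 to 0.82, miR-1226-3p from -0.094 to 0.35 and miR-1226-5p from -0.27 to 0.50. The difference in log2 arm ratio ranged from -0.23 to 0.55 for miR-877, from -0.62 to 1.08 for miR-1224 and from -0.10 to 0.19 for miR-1226. The cause of these shifts was not tested. Same-numbered libraries had a correlation of -0.186 in their deviations. With 2 libraries per group, that value cannot show whether the numbers paired the samples. With the replicate block 0 members had a P under 0.05 (25 of all miRNAs). Crossing the numbers, an alternative added once this correlation was known, also gave 0 (59 of all). Depth limits the 3 members that were not tested.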
